A study of Mus musculus with 27 samples.

Results

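46C is a mouse embryonic stem cell line with GFP placed at Sox1, a gene of early neural cells, and its formative pluripotent stem cells (fPSCs) are cells kept between the naive state of the preimplantation epiblast and the primed state of the gastrulating one. A single library of 46C fPSCs at passage 24 was set against 1 library each of fPSCs made from 3 other lines: CMT at passage 11, BVSC at passage 14 and ROSAmTmG at passage 12. Genes were chosen from these libraries by their values alone: an autosomal gene belonged to the 46C set where its level in 46C lay outside the range of the other 3 lines. Among the 10570 autosomal genes that reached 1 FPKM in any of the 4 libraries, 6844 did so, out of 23604 genes in the table. They comprised 4042 genes above the range (38.2%) and 2802 below it (26.5%). FPKM are sequenced fragments normalised to transcript length and library size. The genes that stood furthest apart lay at least 2-fold beyond the nearest line on the scale of log2(FPKM + 1), 227 above (2.15%, called 46C-high genes here) and 42 below (0.397%, 46C-low genes). Since the values themselves chose the genes, they are given as a description, with no test.

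All 4 lines are WT in the labels and were grown as 3D colonies in Matrigel, in N2B27 to which Activin A (20 ng/ml), the growth factor bFgf2 (12 ng/ml) and XAV939 were added. XAV939 inhibits tankyrase and so lowers canonical Wnt signalling. CMT fPSCs come from the CMTI-1 line and were cryopreserved before this culture. The BVSC line carries reporters at Blimp1 (Prdm1) and Stella (Dppa3), and ROSAmTmG cells come from mice with a membrane colour reporter. Line, passage, culture and library cannot be told apart in these 4 samples, because each line has 1 library. FPKM summed to between 365203 and 372022 in the 4 libraries, and between 10374 and 10875 genes reached 1 FPKM, the most in 46C. The depth behind an FPKM is not known, and on the log2(FPKM + 1) scale the change of low genes is understated. In addition, 6 samples of naive mESCs, EpiLCs (cells on the way out of the naive state) and primed EpiSCs, 2 libraries each, were compared by limma (its p-values measure the spread between these libraries, which may be technical), and the other bulk libraries, 3 days of Epiblastoids (the lumen-forming colonies from which fPSCs are stabilised), fPSCs of passages 1, 10, 20 and 30 and fPSCs from E5.5 and E6.5 epiblasts, were read as single values.

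The gastrulating epiblast gives rise to definitive endoderm and to organizer cells at the anterior end of its primitive streak, where high Nodal/Activin signalling turns on Eomes, Mixl1, Lhx1, Gsc, Foxa2 and then Sox17 and Hhex. Extraembryonic endoderm, which forms earlier and surrounds the epiblast, shares Gata6, Sox17, Foxa2 and Hhex with it and adds Gata4, Hnf4a, Dab2 and apolipoproteins. Gata6, Sox17 and Foxa2 alone therefore do not tell these 2 kinds of endoderm apart.

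The labels were checked first. Hprt, the purine salvage enzyme that is deleted in the E14Tg2a cells from which 46C was made, was at 0.382 FPKM in 46C, 114 in CMT, 104 in BVSC and 106 in ROSAmTmG. Only the library labelled 46C lacked it among all 19 bulk libraries, the next lowest being 48.4 FPKM in an EpiSC library. Sox1, the reporter locus of 46C, was under 0.05 FPKM in all 4 lines. Pou5f1, the central pluripotency factor, was at 577 FPKM in 46C, 852 in CMT, 931 in BVSC and 1025 in ROSAmTmG, lowest in 46C. In fPSCs of passages 10, 20 and 30 and of E5.5 and E6.5 epiblasts it was between 420 and 555 FPKM, below 46C. Otx2 and Fgf5, formative genes, were at 100.2 and 109 FPKM in 46C, each the highest of the 4 lines. Naive Zfp42 was listed at 0 in 46C and stayed under 0.1 FPKM in the other 3, and naive Klf4 reached 1.08 FPKM in 46C. Nanog, which the naive list also holds, was between 53.6 and 72.3 FPKM in the 4 lines, and Fgf4, of the same list, between 2.09 and 17.4.

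46C stood further from the other lines than any of them did from the rest. Pearson's r of log2 values, taken across 10570 genes that are not independent of each other, ran from 0.944 to 0.969 between 46C and the others and from 0.976 to 0.982 among those 3. Outside the range at all, CMT had 18.4% of genes above and 17.6% below, BVSC 19.4% and 22.4%, and ROSAmTmG 2532 genes above and 33.4% below. By the same rule that gave 227 and 42 genes for 46C, 8 genes were at least 2-fold above (0.0757%) and 16 below (0.151%) in CMT, 16 above (0.151%) and 17 below (0.161%) in BVSC, and 14 above (0.132%) and 64 below (0.605%) in ROSAmTmG. Another library stood apart by a chromosome: genes of chromosome 16 were higher in ROSAmTmG by a median of 0.41 on the log2 scale, and without ROSAmTmG in the range 243 genes lay above and 64 below. Without CMT 383 lay above and 94 below.

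**Figure D1:**
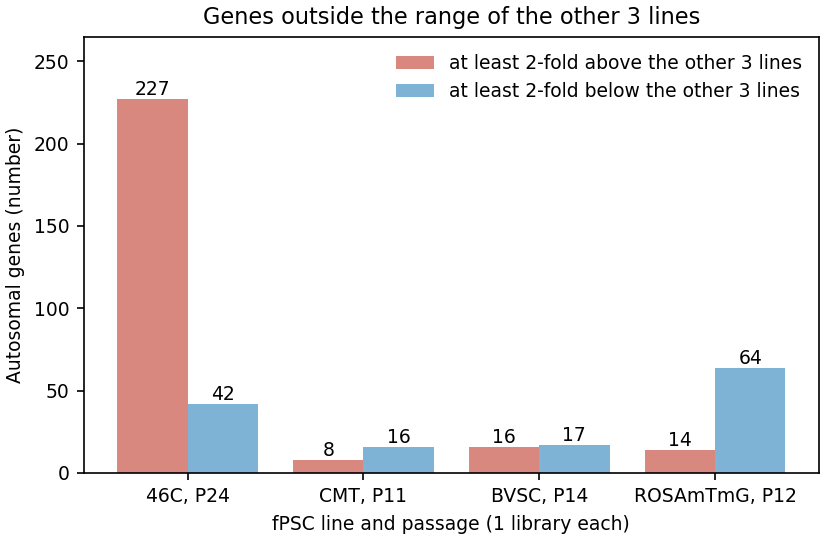
Number of autosomal genes (vertical axis) at least 2-fold above or below the other 3 lines on the log2(FPKM + 1) scale, for each fPSC line (1 library each). 46C had 227 above and 42 below, and no other line more than 16 above or 64 below.

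The 3 endoderm transcription factors were high in 46C. Gata6 was at 21.8 FPKM in 46C, 3.03 in CMT, 1.60 in BVSC and 0.328 in ROSAmTmG. Sox17 was at 50.6 FPKM in 46C, 13.1 in CMT, 5.18 in BVSC and 0.642 in ROSAmTmG. Foxa2 was at 81.9 FPKM in 46C, 31.9 in CMT, 30.8 in BVSC and 9.43 in ROSAmTmG. All 3 followed the same order of lines, 46C above CMT above BVSC above ROSAmTmG, and the gaps to the next line, CMT, were 2.50, 1.88 and 1.33 on the log2 scale. In bulk libraries, more cells of a kind cannot be told apart from more RNA of it per cell.

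Of the organizer and definitive endoderm list, 12 of 14 genes were expressed and all 12 lay above the other lines, 10 of them by at least 2-fold, with a median difference of 3.03 (log2, 46C minus the mean of the 3), beside 0.05 over all genes. None of the 12 entered through 46C alone. Among its transcription factors, Hhex was at 38.2 FPKM in 46C, 4.85 in CMT, 3.70 in BVSC and 0.545 in ROSAmTmG. Lhx1, needed for head organizer function, was at 86.5 FPKM in 46C, 13.6 in CMT, 7.11 in BVSC and 1.32 in ROSAmTmG. Gsc, the homeobox gene of the organizer, was at 56.5 FPKM in 46C, 10.5 in CMT, 4.65 in BVSC and 1.52 in ROSAmTmG. For these genes CMT held the second place each time and ROSAmTmG the last, at or under 1.52 FPKM. Secreted antagonists of Nodal, BMP and Wnt signals belonged to the same group: Cer1 was at 203 FPKM in 46C, 46.2 in CMT, 16.2 in BVSC and 2.23 in ROSAmTmG. Dkk1, an inhibitor of Wnt, was at 28.9 FPKM in 46C, 5.19 in CMT, 2.84 in BVSC and 0.535 in ROSAmTmG. Chrd, an inhibitor of BMP, was at 55.3 FPKM in 46C, 20.5 in CMT, 10.6 in BVSC and 5.69 in ROSAmTmG. The surface receptor Cxcr4, used to sort definitive endoderm, was at 28.5, 7.05, 3.61 and 0.727 FPKM in 46C, CMT, BVSC and ROSAmTmG, and Foxa1 at 5.99, 1.04, 1.02 and 0.149 FPKM in the same order. Otx2 and Noto lay above by less than 2-fold, and Nog and Shh stayed under 1 FPKM in all 4 lines.

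The stretches before the starts of 5 of these genes are shown with one for Car4, the gene furthest below in 46C, because marks in fPSCs at these starts are described further on. Each is the 250 bases before the RefSeq start (mouse, GRCm38.p6 table), placed by its own match in mm9 and written 5′ to 3′ on the gene's strand, with CG dinucleotides in capitals.
Hhex: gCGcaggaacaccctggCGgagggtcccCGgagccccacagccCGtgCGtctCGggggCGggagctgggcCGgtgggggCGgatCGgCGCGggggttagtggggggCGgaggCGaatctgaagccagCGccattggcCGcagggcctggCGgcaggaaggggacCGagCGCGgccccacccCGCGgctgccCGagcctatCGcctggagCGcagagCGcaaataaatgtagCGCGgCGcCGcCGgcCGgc
Lhx1: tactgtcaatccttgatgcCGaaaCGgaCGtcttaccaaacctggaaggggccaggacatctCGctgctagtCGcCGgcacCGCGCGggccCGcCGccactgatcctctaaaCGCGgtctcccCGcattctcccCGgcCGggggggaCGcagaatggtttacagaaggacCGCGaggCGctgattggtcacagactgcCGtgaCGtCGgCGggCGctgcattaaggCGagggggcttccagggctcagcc
Gsc: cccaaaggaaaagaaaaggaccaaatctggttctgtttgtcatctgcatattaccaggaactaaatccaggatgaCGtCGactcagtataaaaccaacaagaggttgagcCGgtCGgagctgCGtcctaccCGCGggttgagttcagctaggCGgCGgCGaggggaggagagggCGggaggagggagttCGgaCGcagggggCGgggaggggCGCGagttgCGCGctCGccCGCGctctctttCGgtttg
Foxa2: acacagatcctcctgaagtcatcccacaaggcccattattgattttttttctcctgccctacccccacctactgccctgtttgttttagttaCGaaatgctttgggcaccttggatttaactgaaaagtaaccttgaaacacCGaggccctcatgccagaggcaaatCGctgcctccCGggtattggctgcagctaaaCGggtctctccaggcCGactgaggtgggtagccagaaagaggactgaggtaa
Cer1: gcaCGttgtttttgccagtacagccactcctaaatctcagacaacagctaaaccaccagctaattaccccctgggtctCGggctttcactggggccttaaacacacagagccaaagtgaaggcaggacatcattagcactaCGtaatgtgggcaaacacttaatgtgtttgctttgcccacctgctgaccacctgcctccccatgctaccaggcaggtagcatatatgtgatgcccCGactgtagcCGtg
Car4: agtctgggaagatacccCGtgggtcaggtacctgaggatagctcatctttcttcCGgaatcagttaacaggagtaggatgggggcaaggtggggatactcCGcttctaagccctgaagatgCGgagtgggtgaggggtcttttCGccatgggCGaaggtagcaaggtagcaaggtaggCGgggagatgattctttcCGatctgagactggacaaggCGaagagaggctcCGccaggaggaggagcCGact
They lie at chr19:37509081-37509330 (+ strand, Hhex), chr11:84339037-84339286 (- strand, Lhx1), chr12:105711447-105711696 (- strand, Gsc), chr2:147872706-147872955 (- strand, Foxa2), chr4:82531056-82531305 (- strand, Cer1) and chr11:84771006-84771255 (+ strand, Car4), before the RefSeq transcript. The RefSeq start of Hhex lies 1954 bases from the start in the gene annotation used elsewhere here. They hold 32 CG in Hhex, 26 in Lhx1, 22 in Gsc, 6 in Foxa2, 5 in Cer1 and 11 in Car4. The median was 16 over the 10278 protein-coding genes tested, in the 250 bases before their annotated rather than RefSeq starts.

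Genes outside the lists were named by the size of their gap. Cfc1, a coreceptor of Nodal, was at 29.2 FPKM in 46C, 4.84 in CMT, 3.28 in BVSC and 0.457 in ROSAmTmG. Sfrp1, a secreted Wnt inhibitor, was at 58.3 FPKM in 46C, 10.8 in CMT, 7.37 in BVSC and 4.88 in ROSAmTmG. Pth1r, a receptor of parathyroid hormone and its relative made by early endoderm, was at 11.7 FPKM in 46C, 1.37 in CMT, 0.786 in BVSC and 0.305 in ROSAmTmG, and Dpysl3, a cytoskeletal protein of neurons, at 20.8 FPKM in 46C, 3.202 in CMT, 2.73 in BVSC and 1.15 in ROSAmTmG. Further 46C-high genes, named after their values were seen, included the Wnt inhibitors Sfrp5 (33.7, 6.44, 2.38 and 0.304 FPKM in 46C, CMT, BVSC and ROSAmTmG) and Frzb (10.9, 2.17, 1.43 and 0.867 FPKM), the retinoic acid hydroxylase Cyp26a1 (96.4, 20.2, 11.7 and 1.67 FPKM) and the hormone gene Trh (751, 177, 144 and 73.6 FPKM). Each of these 4 was highest in 46C and lowest in ROSAmTmG.

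**Figure D2:**
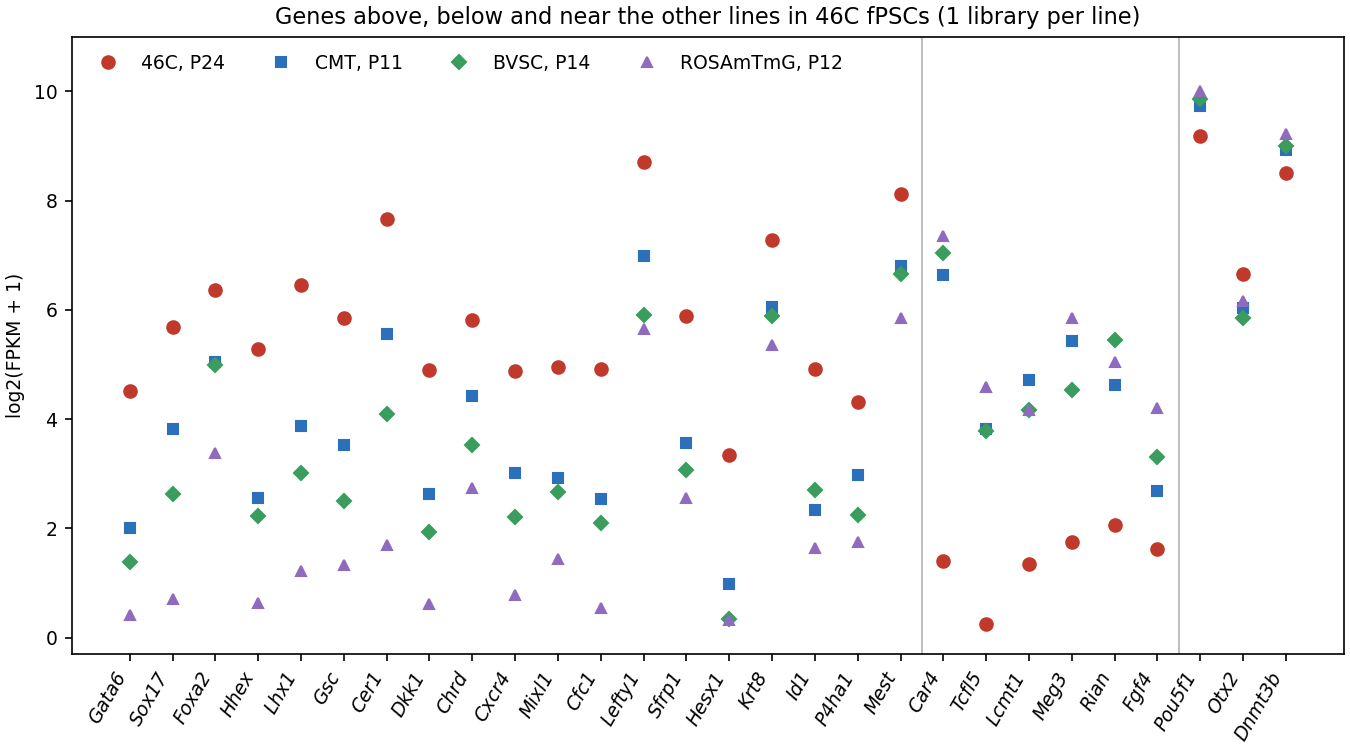
log2(FPKM + 1) (vertical axis) of named genes in fPSCs of 46C, CMT, BVSC and ROSAmTmG, 1 library each. Left of the first line, 19 genes lie at least 2-fold above the other lines in 46C; between the lines, 6 lie at least 2-fold below; on the right, Pou5f1 and Dnmt3b lie below and Otx2 above by less than 2-fold.

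Extraembryonic endoderm genes were expressed less but also lay above. Of the primitive and visceral endoderm list, 12 of 20 genes were expressed and all 12 were above, 10 by at least 2-fold, of which Gata6, Sox17 and Foxa2 also belong to the previous groups. Of the 12, 5 reached 1 FPKM only in 46C, so that their place above was fixed by the limit. Gata4 was at 9.10 FPKM in 46C, 1.32 in CMT, 0.319 in BVSC and 0.479 in ROSAmTmG. Apoa1, an apolipoprotein, was at 16.9 FPKM in 46C, 3.59 in CMT, 1.18 in BVSC and 0.154 in ROSAmTmG, and Rbp4, the plasma carrier of retinol, at 14.6 FPKM in 46C, 2.23 in CMT, 1.38 in BVSC and 0.862 in ROSAmTmG. The endoderm and liver factor Hnf4a was lower, at 2.87 FPKM in 46C. Defining genes of mature visceral endoderm were at or near 0: Afp was listed at 0 in all 4 lines, and Cubn and Apob were under 0.1 FPKM in each. Sox7, also of this list, was under 0.1 FPKM in each line as well. In the list for parietal endoderm and basement membrane, 6 of 8 expressed genes were above, 4 by at least 2-fold, of which Stra6 and Srgn entered through 46C alone. Col4a1, a collagen of basement membranes, was at 12.6 FPKM in 46C, 5.33 in CMT, 4.72 in BVSC and 4.47 in ROSAmTmG, while Sparc, abundant in parietal endoderm, was at 27.1 FPKM in 46C and between 26.1 and 32.1 in the others.

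Genes of other lineages were fewer. In the primitive streak and mesoderm list, 9 of 18 genes were expressed, 5 above and 2 below (beside 38.2% and 26.5% of all genes tested), with a median difference of 0.88. Mixl1, an anterior streak factor, was at 29.95 FPKM in 46C, 6.63 in CMT, 5.36 in BVSC and 1.71 in ROSAmTmG and was the only one past 2-fold. Eomes (48.4, 27.2, 22.3 and 19.3 FPKM in 46C, CMT, BVSC and ROSAmTmG) and T (30.3, 20.4, 21.9 and 5.37 FPKM) lay above by less, and the mesoderm genes Mesp1, Tbx6, Hand1 and Kdr were under 1 FPKM in all 4. Of the neural list, 4 of 18 genes were expressed, 2 above and 1 below, and both of those above were under 1 FPKM in the other 3 lines, so that the filter fixed their place. One of them, Hesx1, a gene of anterior neural plate and of anterior endoderm, was at 9.22 FPKM in 46C, 0.974 in CMT, 0.274 in BVSC and 0.247 in ROSAmTmG. All 7 expressed genes (of 16) of the surface ectoderm and trophoblast list were above, 5 by at least 2-fold, and they were keratins, Gata3, Tead4 and Ascl2. Gata3 and Tead4 were under 1 FPKM in the other 3 lines and could only lie above. Krt8, a keratin of simple epithelia, endoderm included, was at 155 FPKM in 46C, 65.3 in CMT, 58.2 in BVSC and 39.8 in ROSAmTmG. The defining genes Cdx2, Elf5, Tfap2a, Trp63 and Krt5 of that list were under 1 FPKM in every line. Of the germ cell list, 2 of 18 genes were expressed, both above. Kit, the receptor of stem cell factor, was at 14.8 FPKM in 46C, 3.23 in CMT, 3.18 in BVSC and 2.82 in ROSAmTmG, and Prdm1, a reporter locus of BVSC that is also an endoderm gene, at 3.97 FPKM in 46C, 0.808 in CMT, 2.78 in BVSC and 0.0439 in ROSAmTmG. Of the list for fibroblasts, blood and vessels, 3 of 17 genes were expressed, 2 above and 1 below, none past 2-fold, and Col1a1, Ptprc, Pecam1 and Cdh5 were under 1 FPKM in all 4 lines. In 46C the summed level of the organizer and definitive endoderm list was 739 FPKM, beside 219.9 in CMT, 143 in BVSC and 93.6 in ROSAmTmG.

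Pluripotency genes went the other way or little. Of 18 expressed formative genes (of 19), 7 were above and 10 below, none past 2-fold, with a median difference of -0.18, and of 10 core pluripotency genes 1 was above and 5 below (median -0.13). Over all genes tested, 38.2% were above and 26.5% below. Dnmt3b, the de novo DNA methyltransferase, was at 361 FPKM in 46C, 486 in CMT, 509 in BVSC and 595 in ROSAmTmG. Pou3f1 was at 13.3 FPKM in 46C, 20.8 in CMT, 22.2 in BVSC and 43.2 in ROSAmTmG. Both were lowest in 46C and highest in ROSAmTmG. Sox2, at 33.1 FPKM in 46C, lay within the range of the other lines, and Nanog was at 72.3 FPKM in 46C, 70.8 in CMT, 53.6 in BVSC and 60.6 in ROSAmTmG, next to CMT. Of the naive list, 5 of 17 genes were expressed, 3 above and 2 below. Fgf4, which signals from the epiblast, was at 2.09 FPKM in 46C, 5.44 in CMT, 8.86 in BVSC and 17.4 in ROSAmTmG. Of the primed list, 6 of 12 genes were expressed and 5 were above, Foxa2, Gata6 and the mesenchymal cadherin Cdh2 by at least 2-fold. Cdh2 was at 31.2 FPKM in 46C, 7.19 in CMT, 4.28 in BVSC and 2.36 in ROSAmTmG. In the mesenchymal list, 4 of 6 expressed genes (of 12) were above and 1 below, while Snai2, Zeb1 and Twist2 were under 1 FPKM in all 4. Of 20 genes of epithelial polarity, all expressed, 12 were above and 7 below (median 0.25), and Cdh1 was at 141 FPKM in 46C, 151 in CMT, 158 in BVSC and 160.3 in ROSAmTmG.

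In the Nodal/Activin list, 8 of 13 expressed genes (of 16) were above and 2 below, and 2 were past 2-fold, Cer1 and Lefty1. The shares over all genes tested were 38.2% above and 26.5% below, here and for the lists that follow. Lefty1, a feedback inhibitor of Nodal, was at 414 FPKM in 46C, 126 in CMT, 58.9 in BVSC and 49.2 in ROSAmTmG, whereas Nodal itself was at 25.8 FPKM in 46C, 26.8 in CMT, 26.95 in BVSC and 26.3 in ROSAmTmG. Of the BMP list, 7 of 10 expressed genes (of 12) were above and none below. Bmp2, a ligand, was at 11.4 FPKM in 46C, 2.32 in CMT, 1.09 in BVSC and 0.311 in ROSAmTmG, and Id1, a direct BMP target, at 29.4 FPKM in 46C, 4.03 in CMT, 5.48 in BVSC and 2.12 in ROSAmTmG. The other Id genes did not go with it: Id2 and Id3 lay within the range of the other lines. Wnt targets were split, with 5 of 13 expressed genes (of 16) above and 7 below and a median of -0.15. Sp5 was at 12.8 FPKM in 46C, 3.18 in CMT, 2.01 in BVSC and 0.480 in ROSAmTmG, and Lgr5, a receptor of Wnt agonists, at 7.90 FPKM in 46C, 2.25 in CMT, 1.99 in BVSC and 0.105 in ROSAmTmG. Axin2, a feedback gene of the pathway, was instead lowest in 46C, at 5.79 FPKM in 46C, 6.55 in CMT, 10.8 in BVSC and 7.82 in ROSAmTmG. In the FGF/ERK list, 5 of 14 expressed genes (of 15) were above and 5 below. Fgf8 was highest in 46C (95.7, 56.2, 45.4 and 53.6 FPKM in 46C, CMT, BVSC and ROSAmTmG) and Etv5 lowest (43.3, 58.9, 65.5 and 88.9 FPKM).

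Genes of hypoxia and glycolysis were also higher in 46C. Of 18 expressed genes (of 19), 16 were above and 1 below, with a median difference of 1.16. Prolyl hydroxylases were prominent: P4ha1, which acts on collagen, was at 18.95 FPKM in 46C, 6.92 in CMT, 3.72 in BVSC and 2.38 in ROSAmTmG. Egln3 was at 21.02 FPKM in 46C, 8.33 in CMT, 3.65 in BVSC and 7.07 in ROSAmTmG, and Egln1 at 27.5 FPKM in 46C, 12.02 in CMT, 5.86 in BVSC and 5.67 in ROSAmTmG. Pdk1, a kinase that inhibits pyruvate dehydrogenase, was at 30.7 FPKM in 46C, 13.9 in CMT, 6.41 in BVSC and 10.7 in ROSAmTmG, and Ndrg1 at 25.1 FPKM in 46C, 9.44 in CMT, 11.1 in BVSC and 3.53 in ROSAmTmG. Glycolytic genes differed less, Gapdh being at 2409 FPKM in 46C, 1649.6 in CMT, 1612 in BVSC and 1451 in ROSAmTmG, and Eno1 was lowest in 46C, at 476 FPKM in 46C, 1203 in CMT, 526 in BVSC and 578 in ROSAmTmG. Car9, a common hypoxia target, was under 0.4 FPKM in every line. The remaining lists gave no genes past 2-fold above: for amino acid stress 6 of 14 expressed genes were above and none below, for p53 targets 3 of 12 above and 1 below, for interferon and MHC genes 2 of 14 above and 3 below, for cholesterol synthesis 3 of 21 above and 6 below, for xenobiotic and glutathione genes 2 of 15 above and 7 below, and for RNAs without a poly(A) tail 1 of 3 above and none below. Cbr3, a carbonyl reductase, was the only one of these past 2-fold below, at 15.2 FPKM in 46C, 44.04 in CMT, 32.6 in BVSC and 67.1 in ROSAmTmG. Beside all these list counts, 38.2% of all genes tested lay above and 26.5% below.

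The 46C-high genes shared an order among the other 3 lines, given as a description since these libraries set the rule. CMT was the highest of the other 3 lines for 179 of 227 (78.9%, beside 38.7% of all genes tested) and ROSAmTmG the lowest for 189 (83.3%, beside 39.9%). The full order 46C, CMT, BVSC, ROSAmTmG held for 156 (68.7%), beside 1389 of the 4042 genes above the range (34.4%). In the lists described above, Bmp4, Runx1, Cdh11, Col1a2, Gstt1 and Klf4 also reached 1 FPKM in 46C alone. Of the 227 genes, 71 were under 1 FPKM in all 3 other lines and so entered through 46C alone, and of the 42 46C-low genes 11 were under 1 FPKM in 46C.

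In libraries that the rule did not use, most of these genes were at lower levels than in 46C. Of the 227, 206 (90.7%) were above all 5 fPSC libraries of the earlier deposit (passages 10, 20 and 30, which by the study's methods are of the CMT line, and fPSCs from E5.5 and E6.5 epiblasts), beside 49.3% of all genes tested, and 34 of the 42 46C-low genes (81.0%) were below all 5, beside 18.6%. The 46C library is the one that chose the genes, and CMT was in the rule too, so these shares are partly set by the choice. Of all 4042 genes above the range 66.7% were above all 5, and of the 2802 below it 32.4% were below all 5. Sox17 was at 3.57, 3.49 and 0.265 FPKM at passages 10, 20 and 30, and at 12.7 and 11.6 in the E5.5 and E6.5 fPSCs. Foxa2 was at 44.3, 20.02 and 5.24 FPKM at these passages, and at 68.0 and 58.8 in the E5.5 and E6.5 fPSCs, beside 81.9 in 46C. Cxcr4 was at 26.5 and 28.5 FPKM in the E5.5 and E6.5 fPSCs, next to the 28.5 of 46C. From passage 10 to 20 and again to 30, 121 of 227 (53.3%) stepped down, beside 23.7% of all genes tested. The median of the 227 was 0.555 FPKM at passage 1, 1.55 at passage 10, 1.35 at passage 20 and 0.646 at passage 30, lowest at passage 1. Lhx1 was at 0.0130 FPKM at passage 1 and 7.81 at passage 10. In E5.5 and E6.5 fPSCs the medians were 2.35 and 2.39 FPKM. Cer1 was at 124 and 56.4 FPKM there, below the 203 of 46C and above the 21.1 of passage 10, but Mixl1, at 43.1 and 44.5, was above 46C in both, and Peg10, at 8.13 in E5.5 fPSCs, was below the 25.2 of passage 10.

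On day 4 of the Epiblastoids the median of the 46C-high genes came near that of 46C: it was 5.99 FPKM there, 0.671 on day 3 and 6.73 in 46C. Single genes differed in both directions: Cxcr4 was at 231 FPKM on day 4 and 28.5 in 46C, and Chrd at 12.2 and 55.3. Of 197 46C-high genes at 1 FPKM or more on day 3 or 4, 152 (77.2%) were at least 2-fold higher on day 4 than on day 3, beside 6.97% of all genes tested, and 3 (1.52%) at least 2-fold lower, beside 7.28%. Lhx1 went from 0.0143 to 121 FPKM, Cer1 from a listed 0 to 295 and Mixl1 from 1.65 to 254. Not all followed: Apoa1 was at 0.349 FPKM on day 4 and 16.9 in 46C, and Hesx1 at 0.182 and 9.22. Each day is 1 library, so no test was possible.

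**Figure D3:**
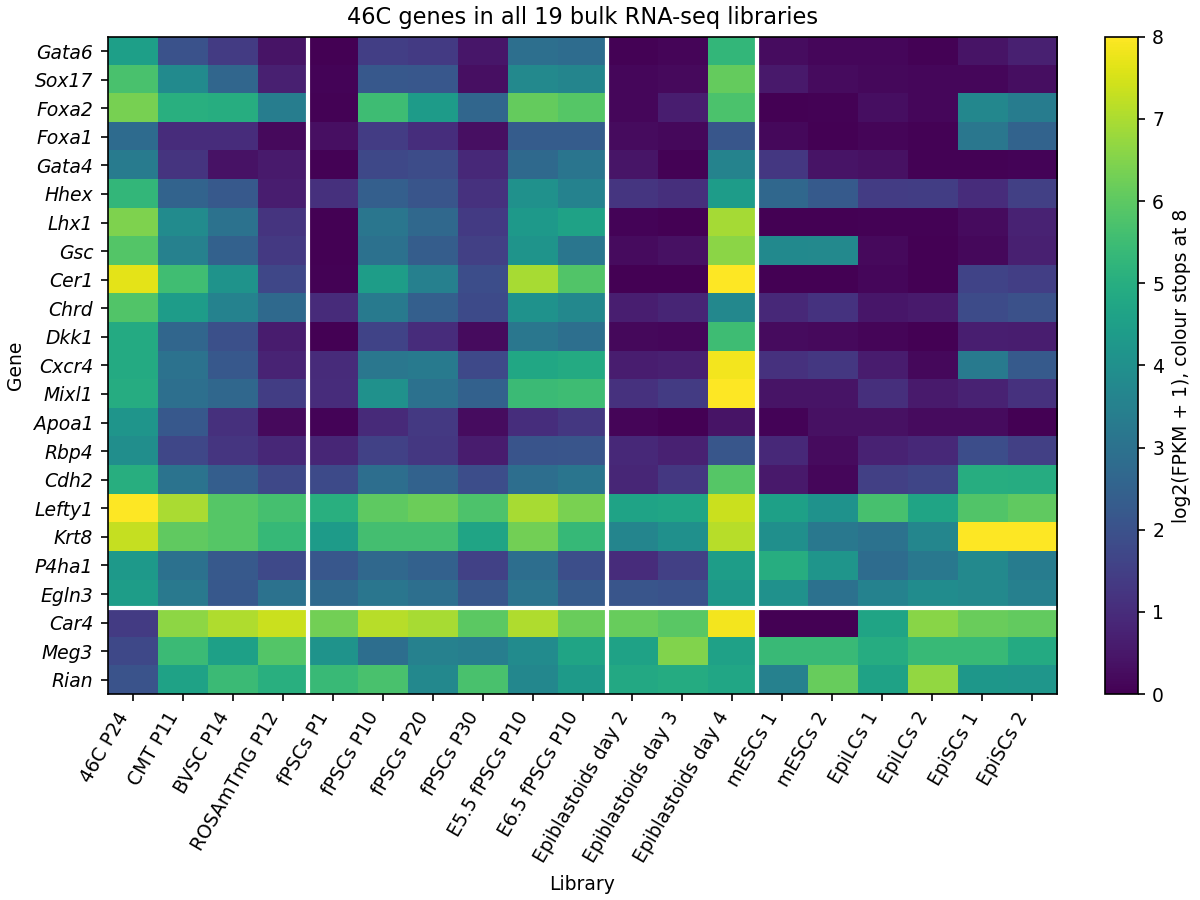
log2(FPKM + 1) (colour, from 0 to 8) of 23 named genes (rows) in the 19 bulk libraries (columns), grouped by white lines into the 4 fPSC lines, earlier fPSC libraries, Epiblastoids, and mESCs, EpiLCs and EpiSCs. 46C and day 4 of the Epiblastoids share high levels of many of the endoderm and organizer genes, but Apoa1 is low on day 4. Foxa2, Cer1, Cxcr4 and Mixl1 are also high in fPSCs from E5.5 and E6.5 epiblasts. Car4, Meg3 and Rian (bottom) are low in 46C.

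Between the naive and primed state a larger share of the 46C-high genes than of all genes was higher in EpiSCs, and the share lower was near that of all genes. In the limma fit of 6 libraries over 12185 genes, 163 of the 227 could be tested. Of these, 74 (45.4%) were higher in EpiSCs than in mESCs and 49 (30.1%) lower, beside 25.9% and 29.4% of all genes tested, where a call needed a fold of 1.5 or more beside an adjusted p (Benjamini-Hochberg) below 0.05. Foxa2 was higher by 3.51 ± 0.19 (SE; adjusted p = 7.6e-06) on the log2 scale and Krt8 by 4.93 ± 0.32 (SE; adjusted p = 1.6e-05). Cdh2 was higher by 4.63 ± 0.22 (SE; adjusted p = 5.5e-06). Gsc differed by -3.34 ± 0.22 (SE; adjusted p = 2.0e-05), lower in EpiSCs, and Hhex by -1.20 ± 0.24 (SE; adjusted p = 0.00397). Gata6, Sox17, Lhx1, Dkk1 and Gata4 were under 1 FPKM in at least 5 of these 6 libraries and were not tested. In EpiLCs 18 (11.04%) were higher than in mESCs and 67 (41.1%) lower, beside 14.8% and 20.6%. With EpiSC library 1 or 2 left out, 39 or 36 of 131 46C-high genes were higher (29.8% or 27.5%, beside 16.9% or 15.9% of all genes), and without mESC library 1, 31 of 148 were lower (20.9%, beside 23.1%).

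Genes lower in 46C than in the other lines were fewer, and several were near absence. Car4, a membrane-bound carbonic anhydrase, was at 1.64 FPKM in 46C, 98.7 in CMT, 131 in BVSC and 163 in ROSAmTmG. Tcfl5, a transcription factor best known from the testis, was at 0.197 FPKM in 46C, 13.03 in CMT, 12.7 in BVSC and 23.1 in ROSAmTmG. Lcmt1, which methylates the phosphatase PP2A, was at 1.53 FPKM in 46C, 25.2 in CMT, 16.9 in BVSC and 17.04 in ROSAmTmG. All 3 were far below every other line, a direction that the rule sets, and Car4 was between 62.9 and 139 FPKM in fPSCs of passages 10, 20 and 30 and of both epiblast stages. The nearest tested genes on either side did not share this. Around Car4, Znhit3 and Usp32 were at 25.5 and 5.18 FPKM in 46C, and Dido1, beside Tcfl5, at 14.7. Around Lcmt1, Arhgap17 and Kdm8 were at 6.99 and 4.72. Each of these was within 1.5-fold of the nearest line. Kdm8 lies far off, starting at chr7:132588190 where Lcmt1 ends at 130573872, and what lies between was not among the genes tested. Col9a3, on the other side of Tcfl5, was above instead, at 7.60 FPKM beside 1.43 to 2.34. In the limma fit Car4 was higher in EpiSCs than in mESCs by 6.11 ± 0.53 (SE; adjusted p = 6.2e-05) and Tcfl5 by 2.18 ± 0.27 (SE; adjusted p = 3.6e-04), whereas Fgf4 differed by -4.60 ± 0.18 (SE; adjusted p = 3.6e-06), lower in EpiSCs. Of the 41 46C-low genes tested there, 14 were higher in EpiSCs (34.1%, beside 25.9% of all genes) and 8 lower (19.51%, beside 29.4%). In EpiLCs 16 of the 41 were higher than in mESCs (39.0%, beside 14.8%) and 4 lower (9.76%, beside 20.6%). On day 4 of the Epiblastoids 4 of the 42 were at least 2-fold higher (9.52%, beside 6.97%) and 13 at least 2-fold lower (31.0%, beside 7.28%).

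Imprinted genes, expressed from 1 parental allele, lay on both sides. Of the imprinted list, 23 of 28 genes were expressed, 7 above and 9 below (beside 38.2% and 26.5% of all genes tested), with a median difference of -0.04 that became 0.03 without ROSAmTmG. Past 2-fold, 3 were above and 4 below, and 3 of those 4 come from a single region. Meg3, at chr12:110779211-110809936, was at 2.35 FPKM in 46C, 42.4 in CMT, 22.3 in BVSC and 56.5 in ROSAmTmG. Rian was at 3.17 FPKM in 46C, 23.6 in CMT, 42.7 in BVSC and 31.97 in ROSAmTmG, and Mirg at 0.477 FPKM in 46C, 8.33 in CMT, 2.52 in BVSC and 3.97 in ROSAmTmG. These 3 noncoding RNAs come from the same region of chromosome 12, and Mir1906-1, which lies inside Meg3 and may share its reads, was at 1.99 FPKM in 46C, 42.4 in CMT, 37.9 in BVSC and 39.02 in ROSAmTmG. Levels also varied widely among other libraries, each above 46C. Rian was at 10.5 and 69.9 FPKM in the 2 mESC libraries, and at 51.2, 12.3 and 50.9 in fPSCs of passages 10, 20 and 30. Meg3 was at 6.44, 10.6 and 9.73 FPKM at these passages. H19, a noncoding RNA of chromosome 7, was at 0.0363 FPKM in 46C, 3.47 in CMT, 2.02 in BVSC and 2.77 in ROSAmTmG. On chromosome 6, 3 paternally expressed genes were above: Mest was at 279 FPKM in 46C, 111 in CMT, 99.3 in BVSC and 57.1 in ROSAmTmG, Peg10 at 21.6 FPKM in 46C, 9.17 in CMT, 7.27 in BVSC and 2.15 in ROSAmTmG and the adjacent Sgce at 4.99 FPKM in 46C, 1.71 in CMT, 1.41 in BVSC and 0.584 in ROSAmTmG. Snrpn, also imprinted, was below by less than 2-fold, at 113 FPKM in 46C, 229.8 in CMT, 219.7 in BVSC and 176 in ROSAmTmG, and Peg3 was within the range.

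Small RNA hairpins of the miR-302 cluster on chromosome 3, a microRNA family of pluripotent cells, lay below as well. The libraries were of total RNA, and these values are not a measure of mature microRNA. Mir302a was at 2.57 FPKM in 46C, 7.61 in CMT, 7.502 in BVSC and 6.48 in ROSAmTmG, Mir302c at 1.13 FPKM in 46C, 7.01 in CMT, 6.86 in BVSC and 4.84 in ROSAmTmG and Mir302d at 1.69 FPKM in 46C, 4.93 in CMT, 6.47 in BVSC and 4.57 in ROSAmTmG. The mature 3p sequences are shown for the 2 of these 3 matched in RefSeq, with the seed, bases 2 to 8, in capitals.
miR-302c-3p: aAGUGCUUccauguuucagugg
miR-302d-3p: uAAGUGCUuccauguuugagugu
The seeds of the 2 differ by a shift of 1 base in the annotated start.

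Some of the most extreme values belong to genes that share sequence with a copy. The ferritin light chain gene Ftl1 was at 113 FPKM in 46C, 1784 in CMT, 1708 in BVSC and 1185 in ROSAmTmG, while its copy Ftl2-ps on chromosome 4 was at 1366 FPKM in 46C, 2.58 in CMT, 3.59 in BVSC and 3.58 in ROSAmTmG. Their sum was 1479 FPKM in 46C, 1786 in CMT, 1711 in BVSC and 1189 in ROSAmTmG, within the range of the lines. Mir692-2, which lies at the Ftl2-ps locus, and Mir692-3 were at 1184 and 218 FPKM in 46C and at most 2.22 and 5.99 in the others. How reads were divided among such copies is not known, so these genes are uncertain, as are Hmgn2-ps1 (155, 21.6, 15.9 and 13.2 FPKM in 46C, CMT, BVSC and ROSAmTmG), Gnb2l1 (327, 1177, 1121 and 1051 FPKM) and Rpl13 (593, 1725, 1616 and 1487 FPKM). The other named genes below were Psors1c2 (5.82, 18.1, 51.03 and 26.995 FPKM), Apitd1 (3.83, 12.9, 12.3 and 12.95 FPKM) and the acyl-CoA synthetase Acsl5 (3.65, 11.3, 10.97 and 10.5 FPKM).

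The genes nearest to the 2-fold limit are given as a description. Just inside, Cd9, a tetraspanin, was at 33.8 FPKM in 46C, 15.99 in CMT, 15.8 in BVSC and 16.4 in ROSAmTmG. Just outside, Armc3 was at 1.23 FPKM in 46C, 0.115 in CMT, 0.0375 in BVSC and 0.0223 in ROSAmTmG. On the other side, Nptx2 was just inside at 0.525 FPKM in 46C and 3.47, 2.05 and 11.6 in CMT, BVSC and ROSAmTmG, and Srpk2, a kinase of splicing factors, just outside at 1.19 and 3.61, 3.47 and 3.34.

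Besides single genes, a stretch of chromosome 6 was higher in 46C. Over 513 genes of that chromosome the median difference was 0.21 on the log2 scale, and over each of the other 18 autosomes it lay between -0.08 and 0.10. Medians were then taken over windows of 51 neighbouring genes. The highest window in 46C reached 0.59, and the next, on chromosome 13, 0.28. Windows at 0.4 or more, a limit chosen after the values were seen, covered chr6:113257175-134220176 (mm9), from Brpf1 to Etv6. Of the 124 genes tested there, 110 (88.7%) were above the other lines, beside 37.4% on the other autosomes, and their median was 0.52, a 1.44-fold difference. Against each line alone the median was 0.51 for CMT, 0.53 for BVSC and 0.56 for ROSAmTmG. Before and after the stretch, the median on chromosome 6 was 0.11 on each side. Only 9 of the 227 46C-high genes lie in it, and without it 218 remained. Nanog, the only core pluripotency gene above the other lines, lies in it as well (chr6:122657507-122664651).

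**Figure D4:**
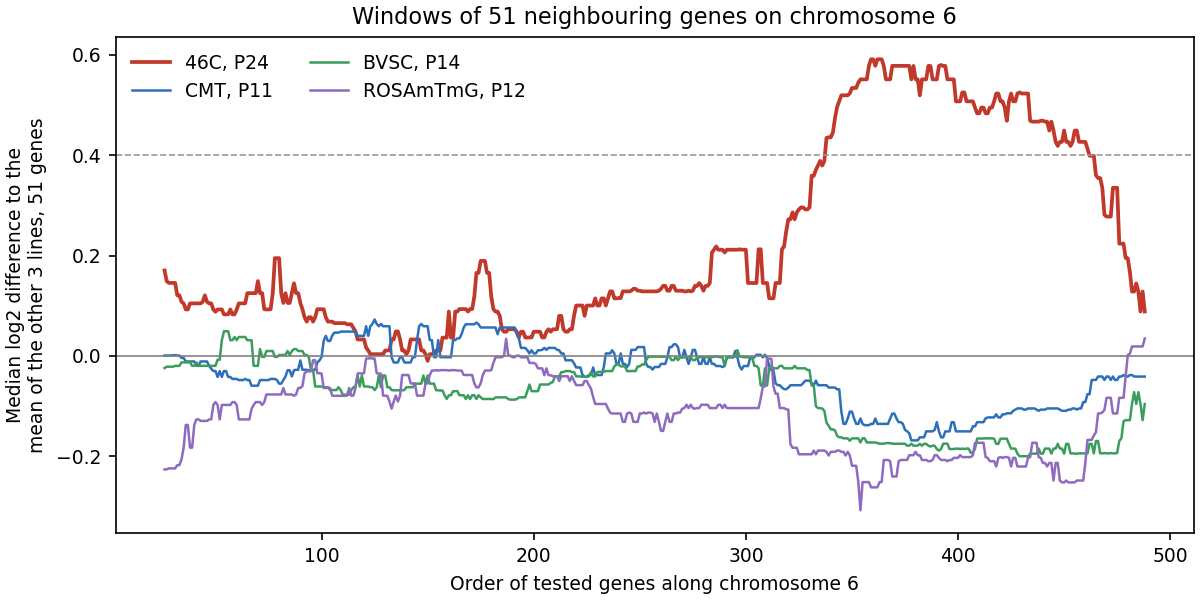
Median log2 difference to the mean of the other 3 lines (vertical axis) over windows of 51 neighbouring genes in their order along chromosome 6 (horizontal axis), 1 curve per line; the dashed line marks 0.4. The 46C curve leaves the others toward the distal end and peaks at 0.59.

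Chromatin at the starts of these genes was read in fPSCs of passage 10, for which no line is given in the labels. H3K27me3, the mark of Polycomb repression, had a median of 1.06 RPKM within 1000 bases of the start over the 217 protein-coding 46C-high genes, 0.354 over the 31 46C-low ones and 0.193 over all 10278 tested. Of the 217, 63 (29.0%) were above 1.71 RPKM, a level reached by 1849 of 18481 placed genes, beside 4.602% of genes tested and 2 of the 31 (6.45%). H3K4me3, a mark of active and poised starts, had medians of 3.36, 4.85 and 5.10 RPKM, and DNA methylation medians of 0.230, 0.272 and 0.187. Expression differed between the sets as well: the median in CMT was 1.74 FPKM over all 227 46C-high genes and 9.25 over all tested, and its part in the difference was not tested.

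The same marks were read within 1000 bases of the starts of the stretches printed above. H3K27me3 was 3.71 RPKM at Foxa2, 2.51 at Lhx1, 2.00 at Hhex and 1.90 at Gsc. H3K4me3 was 2.80, 7.59, 2.43 and 3.48 RPKM in the same order, and methylation at most 0.0693. For Hhex these values depend on the start: at the annotated one, used for the medians, H3K27me3 was 4.48 RPKM and methylation 0.840, beside 0.0183 at the RefSeq start. Cer1 differed, with 0.386 RPKM of H3K27me3 and a methylation of 0.853. Car4 had 10.1 RPKM of H3K4me3 and 0.354 of H3K27me3.

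**Figure D5:**
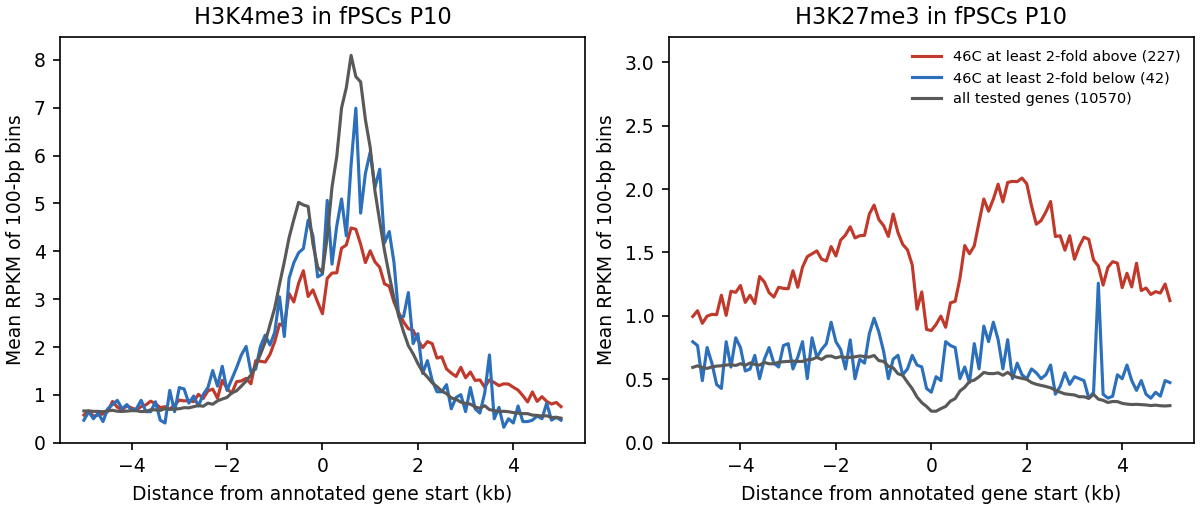
Mean RPKM of H3K4me3 and H3K27me3 (vertical axes) in bins of 100 bases by distance from the annotated gene start in kb (horizontal axis), in fPSCs of passage 10, for 227 46C-high, 42 46C-low and all 10570 tested genes. The 46C-high curve is the highest for H3K27me3 and the lowest for H3K4me3 at the start.

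Motifs were counted on both strands in the 250 bases before the annotated starts of the same protein-coding genes. AGATAA, read by GATA factors, was in 7.83% of the 217 and 5.70% of all, TGTTTAC, read by FOX factors, in 3.23% and 2.15%, and TAATCC, read by OTX2 and GSC, in 5.07% and 5.59%. ACGTG, the core of the hypoxia response element, was in 15.7% and 22.7%, CTTTGAT (TCF/LEF) in 3.23% and 2.28%, ACAATGG (SOX) in 1.84% and 1.60%, AATCCACA (FOXH1) in 0.922% and 0.399%, and GTCTAGAC (SMAD) in 0 and 0.224%. The median number of CG was 11 in the 46C-high, 15 in the 46C-low and 16 in all stretches.

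Single cells of 4 fPSC clones, 182 cells in all, gave a further reading, with no line named in the labels. Sox17, Gata6, Cer1, Hhex and Gsc were not listed in the table of any clone, and Pou5f1 was counted in 17 of the 182 cells. Foxa2 was counted in 39 cells, Lefty1 in 103 and Mixl1 in 7. Of the genes low in 46C, Car4 was counted in 126 cells and Meg3 in 65. Meg3 differed between clones, with a count in 36 of 46 cells of clone 1 and 4 of 46 of clone 2. Hprt was counted in 124 cells.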

How the data were processed

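RNA-seq libraries of total RNA were trimmed with cutadapt 1.11 and aligned with TopHat2 2.1.1, and the deposited FPKM per gene came from Cufflinks 2.1.1, per the submitters' processing notes. The authors deposited H3K4me3 and H3K27me3 signal as RPKM in bins, DNA methylation as a fraction per window, and single-cell counts as whole reads per gene. Genes were placed on mm9 by name (19428) or synonym (1993), and 2183 of 23604 were not placed. Values were compared as log2(FPKM + 1) among autosomal genes that reached 1 FPKM in any of the 4 lines. mESCs, EpiLCs and EpiSCs were compared with limma 3.58.1 (R 4.3.3) and Benjamini-Hochberg adjustment over 12185 genes. On simulated data 84% of genes changed by 2 on the log2 scale were recovered for EpiSCs against mESCs. Other values used Python 3.11.15 with pandas 2.3.3, numpy 2.4.6 and scipy 1.17.1. Named genes were the 12 with the largest gap on each side at 10 FPKM or more, list members past 2-fold at 5 FPKM or more, Gata6, Sox17, Foxa2, reporter loci, pluripotency genes and Hprt; other genes were named after their values were seen. Members and lists were chosen with earlier results of these data known. Alternatives were another pseudocount, filter, scaling and gap, and leaving out each library.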

Additional observations from a re-analysis of the deposited data

How the results depend on the processing

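The number of genes at least 2-fold above in 46C was 422 with a pseudocount of 0.1, 143 at 5 FPKM or more, 633 with a gap of 1.5-fold and 32 with one of 4-fold, and ranged from 243 to 383 with 1 of the other lines left out, the highest without CMT. The number below was 107 with that pseudocount, 163 and 8 with those gaps, and 18 when the range also covered passages 10, 20 and 30, and ranged from 52 to 94 with a line left out (94 without CMT, 64 without ROSAmTmG). Any gap above was 6103 genes with no filter and 2600 at 5 FPKM or more, and any gap below 1226 with those passages; with a line left out these counts ranged from 4553 to 4832 and from 3315 to 3441. Of 66 named genes, 57 kept their direction and side of the limit, and none reversed; with those passages in the range Foxa2 (gap 0.87) and Mixl1 (0.89) were under 2-fold. With a line left out, list medians changed sign for imprinted genes (-0.11 to 0.033, the highest without ROSAmTmG), p53 targets (-0.13 without ROSAmTmG to 0.31), cholesterol synthesis (-0.0062 without BVSC to 0.074), interferon and MHC genes (-0.014 without BVSC to 0.062) and RNAs without a poly(A) tail (-0.22 to 0.22, the highest without CMT, and 0.0022 with upper-quartile scaling). The cause was not tested. With promoter windows of 5000 bases, median H3K4me3 of the 46C-high genes was 1.55 RPKM, beside 1.85 over all genes, and methylation 0.658, beside 0.663, so that methylation turned from above all genes to below.

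With 1 library left out, EpiSCs had 1846 to 2960 genes higher than mESCs and 2312 to 2708 lower, and EpiLCs 1187 to 1402 higher and 1490 to 2439 lower; the remaining library is then assumed to vary like the other groups. With the replicate number as a block, EpiSCs had 3137 higher and 3548 lower and EpiLCs 1694 and 2413. Deviations of same-numbered libraries correlated at -0.20 for mESCs and EpiSCs, 0.21 for mESCs and EpiLCs and -0.14 for EpiLCs and EpiSCs. Whether they share more than a number is not known. Crossing the EpiSC numbers gave 3273 and 3786. The crossed block, the EpiLC alternatives and leaving out the chromosome 6 stretch or noncoding genes (217 above, 31 below) were chosen after seeing the data. Depth behind the FPKM is unknown, and 1 library per line allows no test of 46C.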
